A study of Dichotomyctere nigroviridis with 22 samples.

Results

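The genes described here are the puffer ion channel genes whose symbols place them among the potassium (KCN), sodium (SCN), calcium (CACNA and CACNB), hyperpolarization-activated (HCN) and chloride (CLCN) channel families. They were chosen by symbol alone, and 156 of the 20108 genes listed for either organ carried such a symbol. Of these, 155 were listed for the hypothalamus and 148 for the ovary, with 147 in both. The name voltage-gated potassium, sodium and calcium channels covers the set only in part. By their symbols the members fell into 17 families, which included 18 tandem-pore leak channels (kcnk), 19 inward rectifiers (kcnj) and 9 chloride channels and transporters (clcn), and 11 accessory proteins of voltage-gated potassium channels that form no pore. In all, 29 members shared a symbol with at least 1 other member, and these are given with their Ensembl identifiers.

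Voltage-gated channels open when the membrane potential changes, and the sodium, calcium and potassium families together start, shape and end the action potential of neurons, neuroendocrine cells and muscle. Leak channels and inward rectifiers hold the resting potential, and accessory subunits set the number and timing of the channels at the membrane. In oocytes and follicle cells, potassium, calcium and chloride conductances are known to set the resting potential and to take part in maturation and in the response to the egg's activation.

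Green-spotted puffers (Dichotomyctere nigroviridis) were wild-origin females with vitellogenic ovaries, kept in saltwater. Controls received the vehicle alone by intramuscular injection, given as saline in the sample records and as sterile water in the study's methods, and treated fish received phoenixin-14 (PNX-14), a small peptide matched to the puffer sequence, at 100 ng per g body weight. Organs were taken 24 h later from 6 control (HC) and 6 treated (HT) hypothalami and from 5 control (OC) and 5 treated (OT) ovaries. Ovary samples are called whole ovaries in the records and biopsies in the methods. Libraries carry the numbers of their labels, as in HC5, which probably mark the fish, and nothing stated ties a control number to a treated one.

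Both organs were sequenced as bulk poly(A) RNA, so that fewer cells of a type and less RNA per cell cannot be told apart. Counted reads ranged from 9140910 to 12729314 per hypothalamus and from 11756975 to 15735216 per ovary. The labelled organs carried their defining transcripts, with 16 of 17 neuronal markers higher in control hypothalami (uchl1 was lower) and all 14 oocyte markers higher in control ovaries. The exception to a clean separation was egg coat RNA in the hypothalamus libraries. The level of zpax1, an egg coat protein gene, was between 787 and 1691 CPM (read counts scaled to library size, by TMM within each organ) in HC1, HC2, HC5, HT3 and HT4 and between 28.9 and 313 CPM in the other hypothalami. HC5 also stood apart by smooth muscle transcripts, with acta2 at 2823 CPM, and HT4 had 590.1 CPM, against 26.1 to 244 CPM in the remaining hypothalami.

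The channel genes were far more prominent in the hypothalamus than in the ovary. They took 0.899% ± 0.122 of all counts in HC libraries (SD, n = 6) and 0.883% ± 0.0608 in HT libraries (SD, n = 6). In ovaries the share was 0.163% ± 0.0216 for OC (SD, n = 5) and 0.176% ± 0.0088 for OT (SD, n = 5). No ovary came near a hypothalamus, and control and treated libraries overlapped within each organ. HC5 was the lowest hypothalamus, at 0.666%. At a group mean of at least 1 FPKM (read pairs scaled to library size and to transcript length, so that levels can be compared between genes), 138 channel genes were present in HC and 69 in OC. At 10 FPKM the numbers were 91 and 16, and those of all genes were not counted.

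**Figure D1:**
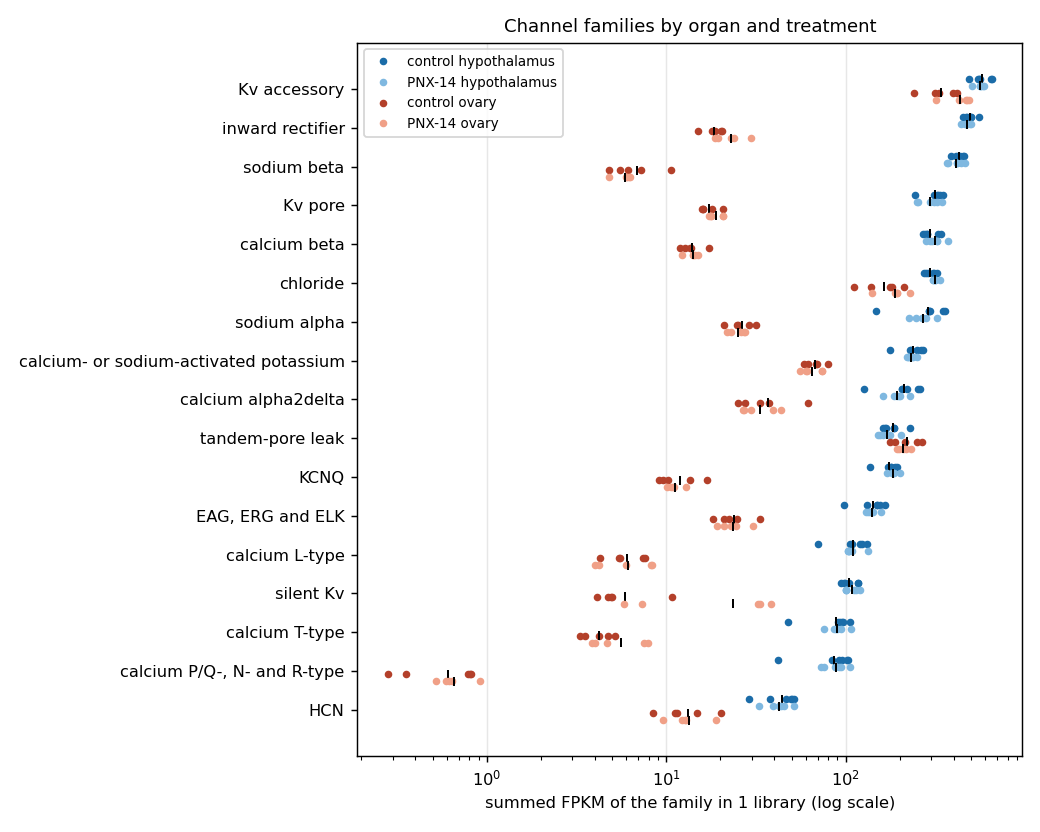
Summed FPKM of each channel family in each library, on a log axis, for control and PNX-14 hypothalami (blue shades) and ovaries (red shades), with the group mean as a black tick. The mean of every family except the leak channels was lower in OC than in HC, and the silent Kv family split into low and high libraries among the 5 PNX-14 ovaries.

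The comparison of control hypothalami with control ovaries asked which channels each organ used. With edgeR's quasi-likelihood test, 145 channel genes could be tested, 111 passed as higher in the hypothalamus and 13 as lower, and 21 did not pass. As a share of those tested, 76.6% were higher, against 41.2% of all 18732 genes tested, and 8.97% were lower, against 36.8% of all genes. The median log2 fold change of the channels was 3.53, beside 0.17 for all genes. Differences were large, since 78 channels were at least 8-fold and 48 at least 32-fold higher in the hypothalamus. How many of all genes reached these folds was not counted. The members differed from a typical gene in build as well. Their median gene span was 7651 bases, beside 3128 for all genes, and their median transcript length was 1562 bases, beside 1224.

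**Figure D2:**
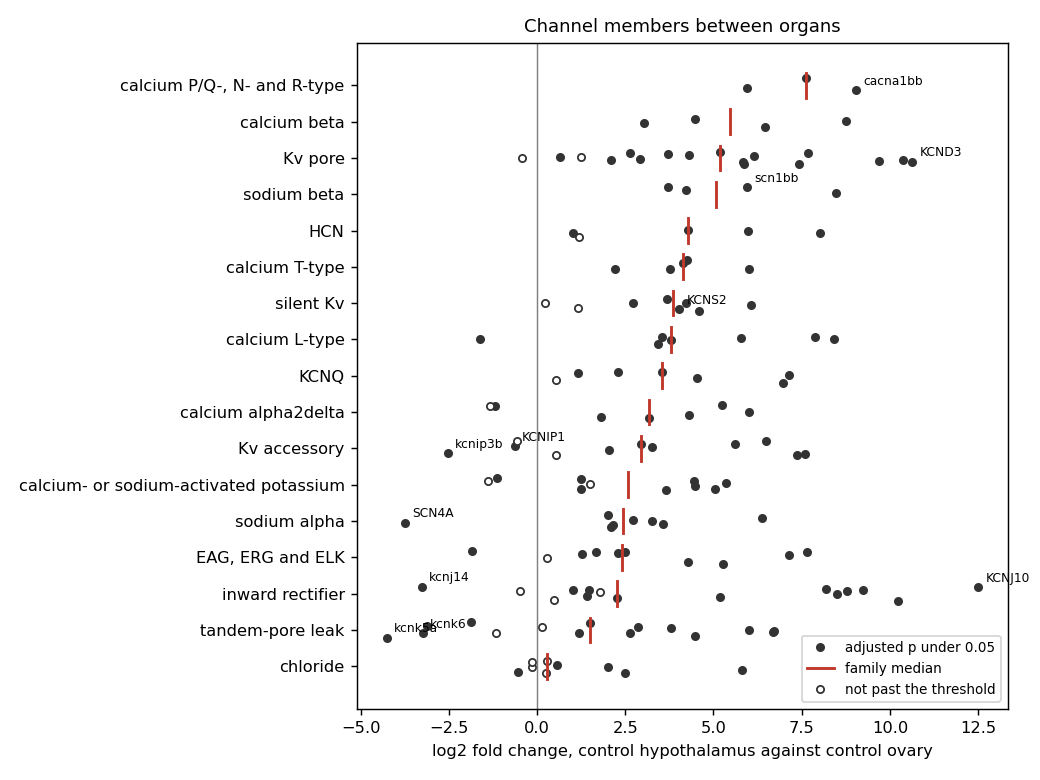
Log2 fold change of each tested channel gene, control hypothalamus against control ovary, by family. Filled points passed an adjusted p of 0.05, open points did not, and red ticks mark family medians, which ran from 0.28 for chloride channels to 7.64 for P/Q-, N- and R-type calcium channels.

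Sodium channels that carry the upstroke of the action potential were led by SCN8A (chromosome 9, 3314310 to 3340952, plus strand), known in mammals as the channel of the axon initial segment. Its level in HC ranged from 71.7 to 238 FPKM with a median of 192 FPKM, and the OC libraries held 10.4 to 17.1 FPKM. All HC libraries lay above all OC libraries, and HC5 held the lowest hypothalamic value. The log2 fold change was 3.25 ± 0.30 (SE) with an adjusted p of 2.43e-07 by edgeR's quasi-likelihood test. Of the 8 pore-forming sodium channel genes, 7 were higher in the hypothalamus and SCN4A, the muscle type, was lower (log2 fold change -3.73), at 0.113 FPKM in HC and 1.20 FPKM in OC. The beta subunits, which anchor and speed the pore, were all higher in the hypothalamus, 4 of 4. Among them scn1bb was the most abundant channel transcript of the hypothalamus, at 296 ± 44.8 FPKM (SD, n = 6), and was 3.76 ± 1.41 FPKM in OC (SD, n = 5).

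Calcium channels of the presynaptic terminal had the highest family median in the comparison of organs. All 3 genes of the P/Q-, N- and R-type group were higher in the hypothalamus, and their summed level was 86.3 ± 22.8 FPKM in HC (SD, n = 6) and 0.61 ± 0.268 FPKM in OC (SD, n = 5). The N-type gene cacna1bb (chromosome 4, 9603653 to 9673634, minus strand) ranged from 6.91 to 15.1 FPKM in HC and from 0 to 0.0446 FPKM in OC, a log2 fold change of 9.04 ± 0.47 (SE). All 5 T-type genes, which open at low voltage and support rhythmic firing, were also higher in the hypothalamus, led by cacna1g at 27.5 FPKM in HC and 0.331 FPKM in OC. Of the 7 L-type genes, which couple long depolarization to secretion and transcription, 6 were higher in the hypothalamus. They were led by cacna1da, at 39.6 ± 10.1 FPKM in HC (SD, n = 6) and 0.133 ± 0.11 FPKM in OC (SD, n = 5). The remaining gene, cacna1fa, was higher in the ovary, at 3.97 ± 0.59 FPKM in OC (SD, n = 5) and 1.66 ± 0.571 FPKM in HC (SD, n = 6), and it was the leading L-type transcript there.

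Auxiliary subunits of calcium channels followed the pores, with exceptions. The 4 beta subunit genes tested were all higher in the hypothalamus, and cacnb2a, the most abundant, measured 133 ± 16.8 FPKM in HC (SD, n = 6) and 12.7 ± 1.89 FPKM in OC (SD, n = 5). The widest difference was that of cacnb1, with a median of 75.8 FPKM in HC and 0.164 FPKM in OC and a log2 fold change of 8.76. Among the 7 alpha2delta genes, whose products bring channels to the surface, 5 were higher in the hypothalamus, led by cacna2d2b at 97.3 FPKM in HC and 1.19 FPKM in OC. CACNA2D3 (ENSTNIG00000015012) was higher in the ovary, at 19.1 ± 2.34 FPKM in OC (SD, n = 5) and 10.7 ± 1.35 FPKM in HC (SD, n = 6), but its model overlaps lrtm1 on the opposite strand, and whether reads were counted by strand is not given in the sources used here. The other gene of this symbol, cacna2d3 (ENSTNIG00000014679), did not pass.

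Pore-forming voltage-gated potassium channels (Kv), which end the action potential, were higher in the hypothalamus for 15 of 17 genes tested, with none lower. The delayed rectifier kcna2a, a juxtaparanodal channel in mammals, had a median of 64.6 FPKM in HC (range 32.2 to 70.8), and 3 of 5 OC libraries had no read. The fast-spiking channel gene kcnc1b had a median of 69.7 FPKM in HC (range 61.8 to 77.6) and at most 0.0991 FPKM in OC, although its model overlaps cttnbp2 on the same strand. No OC library held a read of the A-type channel gene KCND3 (ENSTNIG00000007037), while the 6 HC libraries held 1224 reads, so that the level was at least 401-fold higher in the hypothalamus with a floor of 3 counts over the 5 ovaries. HCN4 (ENSTNIG00000013712), a pacemaker channel, was likewise without reads in OC and at least 64.9-fold higher in HC.

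Of the Kv genes, KCNB2 (ENSTNIG00000008186, chromosome 6, 2900853 to 2951074, minus strand) was the leading pore in the ovary. It measured 5.83 ± 1.13 FPKM in OC (SD, n = 5) and 5.58 ± 0.817 FPKM in HC (SD, n = 6) and did not pass between organs (log2 fold change -0.42, adjusted p = 0.0589 by edgeR's quasi-likelihood test). It encodes a Kv2 subunit, the kind with which silent subunits assemble.

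Silent Kv subunits, which form no channel alone and modify Kv2 channels, were higher in the hypothalamus for 6 of 8 genes tested. KCNS2 (ENSTNIG00000013299, chromosome 8, 9917870 to 9919252, plus strand), the gene of Kv9.2, was the leading silent subunit of the hypothalamus, and in OC it was close to kcng1, at 1.81 and 1.76 FPKM. Its level in HC ranged from 32.2 to 41.2 FPKM (median 38.4), and the OC libraries held 1.45, 0.824, 1.31, 1.23 and 4.23 FPKM in fish 1, 2, 3, 5 and 6. The organs did not overlap (log2 fold change 4.03 ± 0.34 SE, adjusted p = 1.11e-07 by edgeR's quasi-likelihood test).

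The M-type (KCNQ) genes, whose slow current limits repetitive firing, were higher in the hypothalamus for 6 of 7 genes, led by kcnq2b at 77.1 FPKM in HC and 5.22 FPKM in OC. The family of ether-a-go-go channels (EAG, ERG and ELK) had 8 of 10 genes higher and 1 lower. The higher ones were led by the ERG-type kcnh7 (ENSTNIG00000013275), at 63.6 FPKM in HC and 1.29 FPKM in OC. The exception, kcnh6a, also of the ERG type, measured 8.42 ± 3.17 FPKM in OC (SD, n = 5) and 3.02 ± 0.427 FPKM in HC (SD, n = 6). Of the pacemaker HCN genes, 4 of 5 were higher in the hypothalamus.

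Calcium- or sodium-activated potassium channels had 7 of 10 genes higher in the hypothalamus, led by the sodium-activated channel gene KCNT1 (ENSTNIG00000015594) at 54.6 FPKM in HC and 1.26 FPKM in OC. The small-conductance channel gene kcnn3 was higher in the ovary, at 41.2 ± 4.02 FPKM in OC (SD, n = 5) and 23.9 ± 1.91 FPKM in HC (SD, n = 6). Its spread over fish was among the smallest of the channels, with a coefficient of variation of 6.39% in OC.

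Inward rectifiers included several genes with next to no ovarian reads. KCNJ10 (unplaced sequence, 38839203 to 38857027, plus strand), the gene of the potassium-buffering channel Kir4.1 of mammalian glia, had 11883 reads in the 6 HC libraries and 1 read in the 5 OC libraries, in OC1. The ratio of pooled CPM was 11690 (95% exact interval 2100 to 462000, counting error only). The related kcnj10a had 5664 and 3 reads, a ratio of 1857 (interval 635 to 9010). The strong inward rectifier genes kcnj12b (925 and 1 reads) and KCNJ4 (1244 and 2 reads) had ratios of 909.6 (interval 163 to 36000) and 611.7 (interval 169 to 5060). The G protein-activated channel gene kcnj9 had a median of 113.5 FPKM in HC and 0.0626 FPKM in OC. Only kcnj14 was higher in the ovary among the 15 inward rectifiers tested, at 5.92 ± 2.31 FPKM in OC (SD, n = 5) and 0.781 ± 0.393 FPKM in HC (SD, n = 6), and the protein description deposited for it names another member of its family.

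The leak channels were the only family with a higher mean summed level in the ovary, with a summed level of 183 ± 24.8 FPKM in HC (SD, n = 6) and 219.6 ± 38.1 FPKM in OC (SD, n = 5). Of the 15 leak channels tested, 9 were higher in the hypothalamus, led by kcnk1b (ENSTNIG00000016590) at 30.3 FPKM in HC and 8.30 FPKM in OC, and 4 were higher in the ovary. The ovarian sum rested on kcnk6 (chromosome 16, 6508714 to 6511777, plus strand), a weak inward-rectifying leak channel known as TWIK2 in mammals. Its level in fish 1, 2, 3, 5 and 6 of OC was 198.9, 148.5, 130, 195.1 and 131.1 FPKM, and HC ranged from 6.94 to 45.7 FPKM. The organs did not overlap, and the log2 fold change was -3.24 ± 0.48 (SE) with an adjusted p of 4.67e-05 by edgeR's quasi-likelihood test. The alkaline-activated channel gene kcnk5a had a log2 fold change of -4.26, with 6.14 to 18.2 FPKM in OC and at most 2.01 FPKM in HC, and its relative kcnk5b one of -1.87. The fourth, kcnk17, stayed near the limit of detection, with 2, 11, 3, 1 and 0 reads in the OC libraries and 1 read each in HC2 and HC5. Most of its ovarian reads were in OC2, without which it had too few to be tested.

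Among accessory proteins of Kv channels was the most abundant channel transcript of the ovary. The potassium channel-interacting protein kcnip3b (chromosome 4, 1715854 to 1723455, minus strand), a calcium sensor that in mammals also binds DNA, measured 222.9, 245.4, 201.5, 142.6 and 141.9 FPKM in fish 1, 2, 3, 5 and 6 of OC, and 25.2 to 61.6 FPKM in HC. All OC libraries were above all HC libraries (log2 fold change -2.54 ± 0.30 SE, adjusted p = 2.93e-06 by edgeR's quasi-likelihood test). KCNIP1 (chromosome 1, 6995900 to 7005141, minus strand), a calcium-binding partner of Kv4 pores, was abundant in both organs, at 108 ± 20.2 FPKM in HC (SD, n = 6) and 130.2 ± 33.1 FPKM in OC (SD, n = 5). It passed as lower in the hypothalamus with a log2 fold change of only -0.63. Its CPM, scaled within each organ, overlapped, at 57.0 to 94.6 in HC and 51.2 to 110.1 in OC. Whether the KCNIP1 call between organs held under other processing was not examined. The related kcnip1b was at 83.7 FPKM in HC and 0.397 FPKM in OC, a log2 fold change of 7.35. The leading accessory gene of the hypothalamus was KCNIP4, another partner of Kv4, at 144 ± 49.9 FPKM in HC (SD, n = 6) and 1.24 ± 0.451 FPKM in OC (SD, n = 5). KCNIP1 and kcnip1b were the only members whose symbols differ just in case or in a closing a or b and that passed in opposite directions, among 29 such groups with at least 2 genes tested. In 19 of the 29, every gene tested was higher in the hypothalamus.

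Chloride channels and transporters had the lowest family median between the organs, at a log2 fold change of 0.28. Of the 9 genes, 4 were higher in the hypothalamus, 1 was lower and 4 did not pass. Single genes could still differ widely, since clcn2a had a log2 fold change of 5.81. The endosomal exchanger gene clcn3 led in both, at 88.6 ± 10.01 FPKM in HC (SD, n = 6) and 46.9 ± 13.0 FPKM in OC (SD, n = 5). The lysosomal clcn7 was the family's exception, with a log2 fold change of -0.53.

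Genes that work beside the channels moved with them between organs. Of 47 tested partners (ankyrins, contactins, gamma subunits of calcium channels, fibroblast growth factor homologous factors and others), 39 were higher in the hypothalamus and 0 were lower by edgeR's quasi-likelihood test, with 0 lower also at an unadjusted p of 0.05, and DESeq2 called 39. Of all genes, 41.2% were higher and 36.8% lower by edgeR.

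Some channels of the ovary were also raised in the hypothalami that held egg coat RNA. In the 5 hypothalami with more than 500 CPM of zpax1, kcnk6 was 22.4 to 40.1 CPM, and in the other 7 it was 3.38 to 10.2 CPM. The corresponding levels of kcnip3b were 63.7 to 86.0 CPM and 34.9 to 49.9 CPM. These libraries did not overlap with the rest for either gene. For kcnk5a they did, since HT1, not among the 5, held 16 reads and HC1 held 10. Not every channel higher in the ovary followed zpax1, as SCN4A had 14 reads in HC4 and 1 in HC1. The leak channel gene kcnk4a followed another pattern, at 59.2 CPM in HC5 and 25.7 CPM in HT4 and between 4.93 and 10.7 CPM in the other 10 hypothalami, and these were the libraries with the most acta2, tagln and desmb. In the ovary kcnk4a measured 24.0 ± 4.24 FPKM in OC (SD, n = 5), a unit that cannot be set beside these CPM values. In reads it had 344, 444, 338, 264 and 437 in fish 1, 2, 3, 5 and 6 of OC. HC5 held 758 reads, more than any control ovary, and HT4 held 287. Whether ovarian or muscle RNA accounts for these levels was not tested. Without the 5 hypothalami, the log2 fold change between organs was -4.59 for kcnk6, -3.21 for kcnip3b and -6.57 for kcnk5a, and 123 of the 125 channels at an unadjusted p of 0.05 between organs were still at that level.

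**Figure D3:**
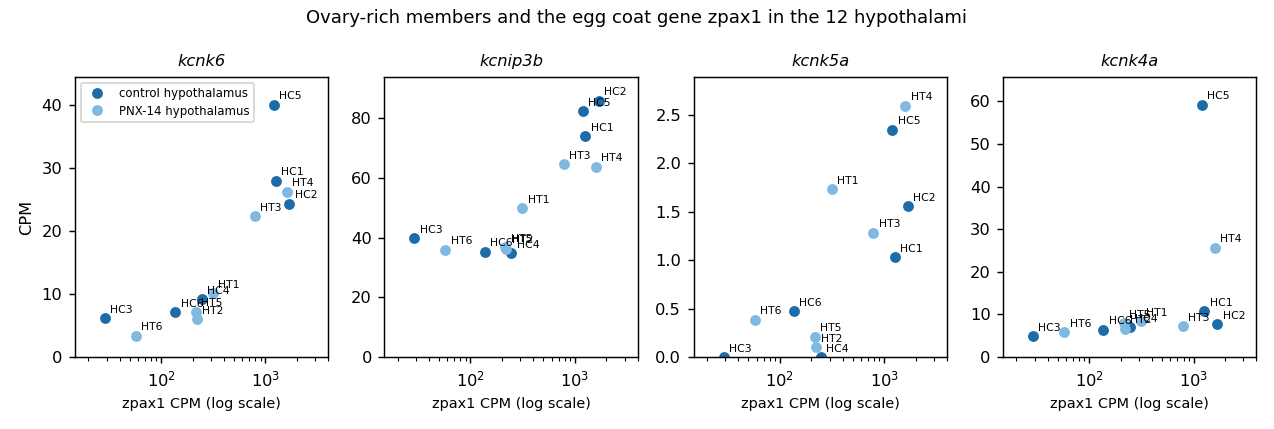
CPM of 4 channel genes that are abundant in ovaries, against the level of the egg coat gene zpax1 (CPM, log axis), in each of the 12 hypothalami, with dark points for controls and light points for PNX-14. Levels of kcnk6 and kcnip3b were highest in the libraries rich in zpax1, and kcnk4a was high in HC5 and HT4 alone.

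The next question was whether PNX-14 altered channel transcripts in the ovary. Of the 156 channels, 84 could be tested, and 0 passed an adjusted p of 0.05 by edgeR's quasi-likelihood test, where 0.0135% of all 14777 genes tested passed. DESeq2 also called 0 channels, where it passed 29 of all 14777 genes. It gave no adjusted p for 16 of the 84 channels. At an unadjusted p of 0.05, 8 channels were set apart (7 by DESeq2). Of those tested, 6 were higher after PNX-14, which is 7.14% beside 4.05% of all genes, and 2 were lower, which is 2.38% beside 3.93%. Log2 fold changes were positive for 42 channels and negative for 42, with a median of 0.00 beside -0.02 for all genes. The smallest adjusted p was 0.562.

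The widest difference was that of KCNS2. In CPM its level was 1.92, 1.27, 1.87, 1.63 and 5.68 in fish 1, 2, 3, 5 and 6 of OC and 3.296, 39.2, 37.6, 1.30 and 44.5 in fish 2, 3, 4, 5 and 6 of OT. In counts these were 25, 14, 23, 20 and 92 reads against 37, 472, 491, 21 and 570 reads. Treated fish 3, 4 and 6 were well above every control, whereas treated fish 2 and 5 lay within the control range, so the groups overlapped. The log2 fold change was 3.32 ± 0.91 (SE) and the adjusted p was 0.562 by edgeR's quasi-likelihood test (unadjusted p = 0.00436), and 0.0609 with DESeq2. The 3 high ovaries, at 27.5 to 32.4 FPKM, came close to the 32.2 to 41.2 FPKM of the control hypothalami. The synaptic gene snap25a, the most abundant neuronal marker of the hypothalamus at a mean of 1830 CPM in HC, had means of 0.316 CPM in OC and 0.584 CPM in OT, and the part of neuronal RNA in the KCNS2 level was not tested.

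KCNB2 (ENSTNIG00000008186), whose Kv2 product is of the kind that assembles with silent subunits, did not show the same split. It ranged from 11.3 to 17.6 CPM in OC and from 15.7 to 18.5 CPM in OT, and its log2 fold change of 0.18 did not pass. The summed silent Kv family was 5.90 ± 2.73 FPKM in OC (SD, n = 5) and 23.5 ± 15.6 FPKM in OT (SD, n = 5), and KCNS2 alone had a mean of 18.3 FPKM in OT. A related silent subunit gene, kcng2, was at 0.185 to 1.46 CPM in OC and 1.75 to 2.50 CPM in OT, without overlap at a level of few reads, and had a log2 fold change of 1.01 (unadjusted p = 0.0405 by edgeR's quasi-likelihood test).

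KCNIP1, already abundant in the ovary, was at 98.8, 110.1, 74.6, 91.2 and 51.2 CPM in fish 1, 2, 3, 5 and 6 of OC and at 169.2, 171.7, 140.1, 81.9 and 133.5 CPM in fish 2, 3, 4, 5 and 6 of OT. All treated fish but fish 5 were above the controls. The log2 fold change was 0.71 ± 0.22 (SE), with an unadjusted p of 0.00704 and an adjusted p of 0.562 by edgeR's quasi-likelihood test. The M-type gene kcnq5b was between 0.247 and 0.898 CPM in OC and between 1.01 and 1.45 CPM in OT (log2 fold change 1.26), so the groups did not overlap, again at few reads. The T-type calcium channel gene cacna1ia was at 6.90, 3.89, 5.46, 8.08 and 2.60 CPM in OC and 19.4, 27.7, 6.89, 9.35 and 4.76 CPM in OT. Treated fish 2 and 3 were far above the controls and fish 5 just above them, and treated fish 4 and 6 overlapped with the controls (log2 fold change 1.34 ± 0.46 SE). The EAG-type kcnh5b had 5.56 to 8.24 CPM in OC and 9.39 to 11.3 CPM in OT (log2 fold change 0.47), with no overlap.

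The 2 channels lower after PNX-14 at an unadjusted p of 0.05 were both low in the ovary. The ERG-type kcnh7 (ENSTNIG00000013275) was at 3.01 to 4.45 CPM in OC and 2.00 to 2.81 CPM in OT (log2 fold change -0.63), without overlap. The L-type CACNA1D was at 0.537 to 1.99 CPM in OC and 0.312 to 1.15 CPM in OT (log2 fold change -1.04), with overlap.

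**Figure D4:**
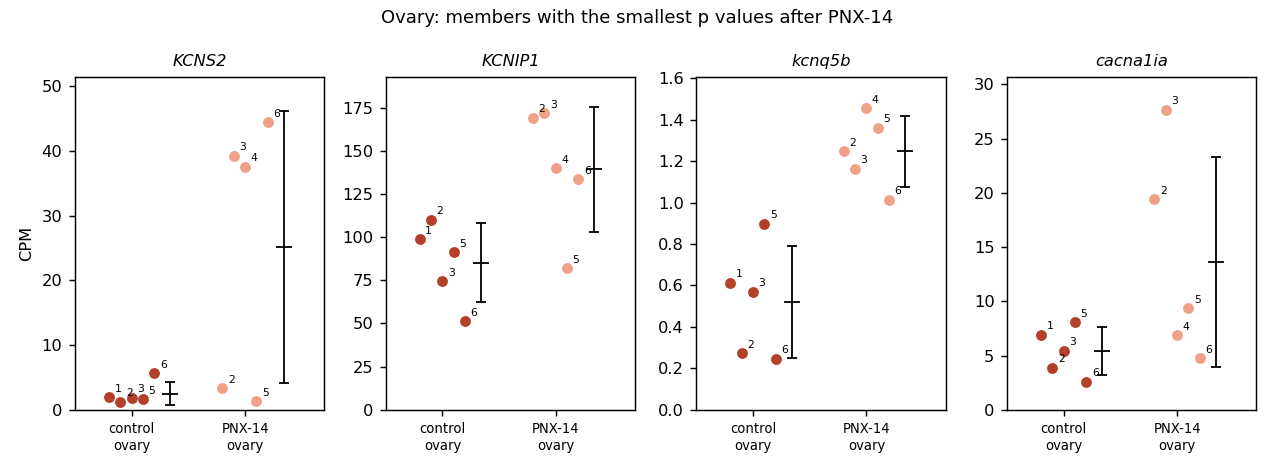
CPM of the 4 channel genes with the smallest p in the ovary, in each control (dark) and PNX-14 (light) ovary, numbered by fish, with the group mean and SD beside the points. KCNS2 was high in treated fish 3, 4 and 6 and at control level in fish 2 and 5, and kcnq5b was the only gene of the 4 without overlap.

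Other cell types differed somewhat between the ovary groups. Summed smooth and striated muscle markers (20 genes) ranged from 4150 to 6840 CPM in OC and from 3180 to 4430 CPM in OT, and 2 of the 15 tested passed with DESeq2 and 0 with edgeR's quasi-likelihood test, where 4 were lower at an unadjusted p of 0.05. Summed macrophage markers (10 genes) ranged from 132 to 376 CPM in OC and from 127 to 202 CPM in OT, and granulosa and theca markers (9 genes) from 203 to 463 CPM and from 156 to 304 CPM. These sums overlapped between the groups. Endothelial markers (7 genes) did not overlap, at 63.9 to 75.5 CPM in OC and 35.8 to 59.6 CPM in OT, with a median log2 fold change of -0.53, 0 past an adjusted p of 0.05 by edgeR's quasi-likelihood test or DESeq2, and 1 at an unadjusted p of 0.05 with each. The part of these cell types in the channel values was not tested. With the oocyte marker level as a term, 4 of the 8 channels remained at an unadjusted p of 0.05, and the log2 fold change of KCNS2 was 3.88. Over all 14777 genes the number at this level went from 1180 to 805. Of the 14 oocyte markers, 4 were themselves higher after PNX-14 at this level by edgeR, so the term is not separate from treatment. Without OT3 the count of channels was 4 as well, where all genes had 871 of 14975. Without OT5 it was 5, where they had 1136 of 14960. Of the channel partners in the ovary, 0 of 24 were past an adjusted p of 0.05 by edgeR's quasi-likelihood test or DESeq2, and each tool had 1 at an unadjusted p of 0.05.

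In the hypothalamus 144 channels could be tested, and 0 passed an adjusted p of 0.05 by edgeR's quasi-likelihood test or DESeq2. Among all 17126 genes tested, edgeR passed 0% and DESeq2 passed 4 genes. The genes at an unadjusted p of 0.05 by edgeR, 440 higher and 228 lower, became 350 and 291 with RLE factors and 300 and 319 with at least 10 counts required in every library. At an unadjusted p of 0.05, 10 channels were set apart with each tool. Of those tested, 3 were higher after PNX-14, which is 2.08% beside 2.57% of all genes, and 7 were lower, which is 4.86% beside 1.33%. The median log2 fold change was -0.01, beside 0.01 for all genes, and the smallest adjusted p was 0.979. Of the 7 lower ones, 3 were sodium channel genes, where 7 sodium alpha and 4 sodium beta genes were among the 144 tested. Of these 3, 2 share the symbol scn5lab and may not be independent.

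The sodium channel beta subunit gene scn4ba (unplaced sequence, 35337046 to 35353827, minus strand) had the smallest p. Its level was 22.1, 18.6, 15.5, 17.5, 10.7 and 17.0 CPM in HC1 to HC6 and 5.30, 7.97, 13.5, 14.5, 11.4 and 7.24 CPM in HT1 to HT6. HC5 was the only control within the treated range, and the log2 fold change was -0.75 ± 0.24 (SE), with an unadjusted p of 0.00792 and an adjusted p of 0.979 by edgeR's quasi-likelihood test. Both gene models named scn5lab, which resemble the cardiac type of sodium channel, were lower as well. The model ENSTNIG00000006684 ranged from 38.1 to 57.3 CPM in HC (median 51.7) and from 29.8 to 44.5 CPM in HT (median 35.9), with overlap (log2 fold change -0.40 ± 0.13 SE). The model ENSTNIG00000003563 ranged from 40.0 to 62.5 CPM in HC and from 39.6 to 48.5 CPM in HT (log2 fold change -0.28). The 2 models share a symbol on unplaced sequence and may divide reads, so they may not be independent.

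Alpha2delta subunits of calcium channels all had negative log2 fold changes, 7 of 7, with a median of -0.17, and 2 of them were at an unadjusted p of 0.05. Of all 144 channels tested, 77 were negative, and of all 17126 genes 8826 were positive. This was 1 of 17 families, and whether its signs differ from those of other genes was not tested. The gene cacna2d3 (ENSTNIG00000014679) was at 25.1, 18.7, 7.68, 10.8, 16.2 and 7.90 CPM in HC1 to HC6 and between 6.41 and 9.93 CPM in HT (log2 fold change -0.84 ± 0.28 SE). HC1, HC2 and HC5, the control hypothalami rich in egg coat RNA, were the highest controls. Of the treated ones rich in it, HT4 was the highest of its group, at 9.93 CPM, and HT3 the lowest, at 6.41 CPM. In reads, cacna2d3 had 244, 180 and 207 in HC1, HC2 and HC5 and 17, 11 and 1111 in OC1, OC2 and OC5. The part of ovarian RNA in these levels was not tested. CACNA2D4 was at 2.62 to 5.002 CPM in HC and 1.25 to 2.80 CPM in HT (log2 fold change -0.74), with overlap only at HC4 and HT6, and its model overlaps LRTM2 on the opposite strand.

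Channels higher after PNX-14 at that level were hcn3, clcn6 and a silent Kv gene other than KCNS2. The silent Kv gene was not among the 8 with the smallest p and is not described. The pacemaker gene hcn3, on unplaced sequence with a transcript of 582 bases and a deposited protein description of another HCN channel, was at 0.0935 to 1.26 CPM in HC and 0.886 to 2.51 CPM in HT (log2 fold change 1.09). The endosomal exchanger gene clcn6 was at 53.4 to 79.4 CPM in HC and 60.4 to 102.3 CPM in HT (log2 fold change 0.33), and its model overlaps nppal on the same strand. The kidney-type chloride channel gene clcnk was lower, at 2.21 to 4.25 CPM in HC and 1.58 to 3.57 CPM in HT (log2 fold change -0.62). Levels of hcn3, clcn6 and clcnk overlapped between the groups.

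**Figure D5:**
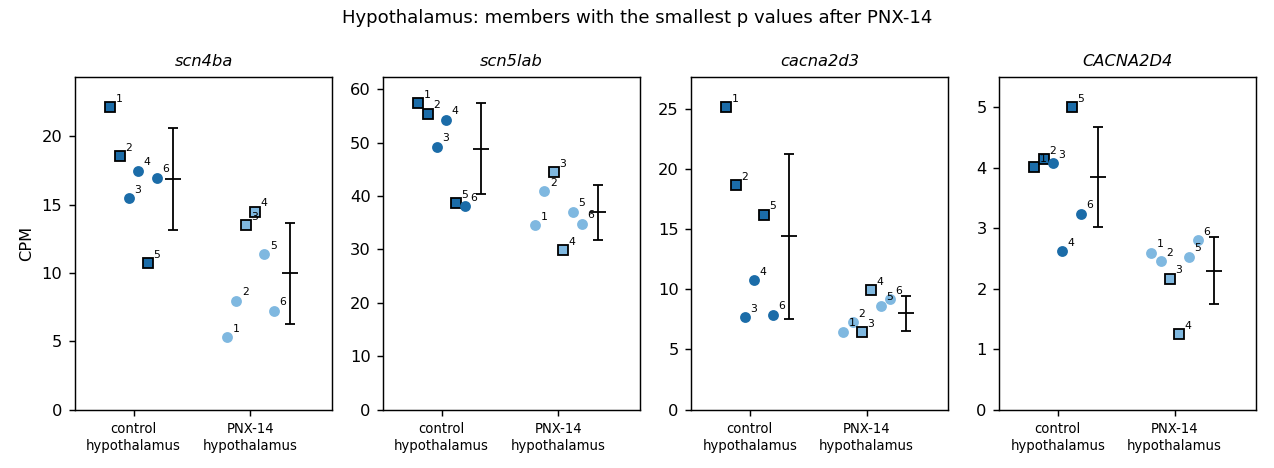
CPM of the 4 channel genes with the smallest p in the hypothalamus, in each control (dark) and PNX-14 (light) library, numbered by fish, with the group mean and SD. Black-edged squares mark libraries with more than 500 CPM of zpax1, and the controls so marked (HC1, HC2 and HC5) held the highest cacna2d3.

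These counts moved with the libraries used. Without the 5 hypothalami rich in zpax1, 15 channels were at an unadjusted p of 0.05 and 3 of the 10 were among them. Over all genes the number at this level also moved, from 668 of 17126 to 1307 of 17266. Without HC2 the count was 4, where all genes had 350 of 17213, and without HT6 it was 6, where they had 659 of 17225. Summed oocyte markers ranged from 121 to 4590 CPM in HC and from 213 to 4410 CPM in HT. With the oocyte level as a term, 11 channels were at an unadjusted p of 0.05 and all 10 were among them. All genes then had 928 of 17126 at this level. The part of muscle RNA was not tested. Of 46 channel partners, 0 passed an adjusted p of 0.05 by edgeR's quasi-likelihood test or DESeq2, and 2 were at an unadjusted p of 0.05 by edgeR and 4 by DESeq2.

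An interaction term over the 22 libraries asked whether PNX-14 moved a channel differently in the ovary and in the hypothalamus. Of 139 channels tested, 0 passed an adjusted p of 0.05 by edgeR's quasi-likelihood test, where 0.00568% of all 17612 genes passed. With DESeq2 1 channel, KCNS2, passed, where 23 of all 17612 genes did. At an unadjusted p of 0.05 there were 21 channels (20 by DESeq2), which is 15.1% beside 6.26% of all genes. The response was the more positive in the ovary for 11 of these and in the hypothalamus for 10. A channel could enter this test through its level in either organ. In the ovary alone 84 channels could be tested, and 14777 of all genes. The 2 shares are therefore not matched for ovarian level, and no conclusion is drawn from their difference.

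KCNS2 led this comparison too. Its level in the hypothalamus hardly varied, from 44.3 to 57.7 CPM in HC and from 44.2 to 53.7 CPM in HT, with a log2 fold change of -0.11 ± 0.08 (SE). The difference between the organs' log2 fold changes was 3.47 ± 0.82 (SE), with an adjusted p of 0.471 by edgeR's quasi-likelihood test and 0.00807 by DESeq2. Without OT5 the difference was 3.79 and the adjusted p by edgeR 0.0317, and with any other library left out edgeR's adjusted p was above 0.05. None of these fits paired the organs of a fish. With a block for same-numbered organs of a group, the KCNS2 difference was 2.93. Its adjusted p was then 0.9999 by edgeR's quasi-likelihood test. KCNIP1 was also among the 4 with the smallest p. Its log2 fold change was -0.27 in the hypothalamus and 0.71 in the ovary, each fitted within its organ. The interaction fit gave a difference of 1.04 ± 0.26 (SE), which did not pass an adjusted p of 0.05 by edgeR's quasi-likelihood test.

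The other leading channels rested on few ovarian reads. The pacemaker gene hcn4 (ENSTNIG00000011958) had 1, 5, 0, 1 and 7 reads in OC, none in OT and 40 to 77 in each hypothalamus. With a floor of 3 counts over the 5 treated ovaries, the ratio of OC to OT was 4.66. Error in the few OC reads was not counted, so this ratio is not a lower limit. The leak channel gene kcnk15 (ENSTNIG00000012606) had 0, 3, 0, 1 and 3 reads in OC and none in OT, a ratio of 2.33 on the same floor and with the same limit. When only genes with at least 10 counts in every library were kept, 7 channels were at an unadjusted p of 0.05 among 58 tested. All genes then had 594 of 12669 at this level.

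The spread between fish was wider for channels than for genes at large in the ovary. The median coefficient of variation of channels with a mean of at least 1 CPM was 35.6% in OC and 26.0% in OT, beside 25.3% and 20.2% for all genes. In the hypothalamus the channels were close to all genes, at 21.6% beside 21.0% in HC and 17.8% beside 17.3% in HT. Channels and other genes were not matched by level. The median level of all channels listed was 0.737 FPKM in OC and 13.7 FPKM in HC. Whether low levels account for the wider ovarian spread was not tested. Several ovarian channels were high in single fish, and these were picked after their values were seen. The small-conductance channel gene kcnn2 was at 22.6 CPM in OC1 and 19.95 CPM in OT3, and at most 1.85 CPM in the other 8 ovaries. The calcium channel subunit gene cacna2d3 (ENSTNIG00000014679) was at 1.30, 0.996, 37.5, 90.7 and 9.52 CPM in OC and 1.42, 40.3, 0.536, 33.6 and 10.4 CPM in OT, a spread that ran through both groups. OT2 alone was high in kcnj3a, a G protein-activated channel, at 10.96 CPM, and in scn4aa, a muscle-type sodium channel, at 6.06 CPM. One gene went the other way, since clcn4 was at 4.07 CPM in OC3 and 83.5 to 106.7 CPM in the other OC libraries. Its model overlaps dusp27 on the same strand.

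In the hypothalamus 1 library was the lowest for more channels than any other. Of 143 channels with a mean of at least 1 CPM, HC5 held the lowest level of the 12 hypothalami for 52, and no other hypothalamus for more than 17. How often HC5 was the lowest over all genes was not counted. HT3 held the highest level for 27 channels and HC5 for 6. In summed FPKM, HC5 was the lowest control for most families. It was the highest control for silent Kv (118.0), sodium beta (459.6) and leak channels (228.7). The N-type gene cacna1bb was at 48.5 CPM in HC5 and 87.5 to 106.0 CPM in the other controls, and the R-type cacna1ea was at 133 CPM against 243.9 to 309.5 CPM. Summed neuronal markers were less reduced, at 4630 CPM in HC5 and 4880 to 5500 CPM in the other controls. Without HC5, 13 channels were at an unadjusted p of 0.05 after PNX-14 in the hypothalamus, 7 of them shared with the 10 found with it. Over all genes that fit had 1473 of 17201 at this level, against 668 of 17126 with HC5.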

How the data were processed

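The authors trimmed paired reads with fastp, aligned them with HISAT2 to the Ensembl TETRAODON 8.0 genome and counted them per gene with featureCounts. Their versions and strand setting: not given in the sources used here. The library kit was directional. The authors deposited raw counts and FPKM for each library in 1 table per organ. Their 22 size-factor-normalised columns and their columns of fold changes, p-values and adjusted p-values were not used. Counts were tested with edgeR 4.0.16 (quasi-likelihood, robust, TMM, filterByExpr, R 4.3.3) across all genes of a comparison, with Benjamini-Hochberg adjustment and a threshold of 0.05. Organs and the interaction were fitted on the 2 tables joined by gene, and the organ filter asked for a total of at least 15 counts. Fold changes were fitted with edgeR's default prior count. The SE given for an edgeR log2 fold change is its absolute value divided by the square root of the test's F statistic. It is not a standard error fitted by the model. A prior count of 2 entered only the log2 CPM values used for the oocyte level and for the deviations of same-numbered samples. DESeq2 1.42.0 was an alternative. Tables were handled in Python 3.11.15 with pandas 2.3.3 and drawn with matplotlib 3.10.9. The scripts were tested on simulated counts. No 2 libraries of a group were alike within sampling noise.

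Members were chosen by symbol, and members, families and marker lists were chosen with earlier results of these data known. Genes named with values were KCNS2, any member past an adjusted p of 0.05 in a PNX-14 comparison or the interaction, the 8 with the smallest p in each PNX-14 comparison, the 4 with the smallest p in the interaction, the 10 most positive and 10 most negative of those past the threshold between organs, and the highest by FPKM of each family in each control group. Others, such as kcnk4a, kcnn2, clcn4, kcnj3a, scn4aa and kcnip1b, were named after their values were seen. Some genes that this rule names are not reported here. Intervals cover counting error only and are exact binomial intervals of 95%. Same-numbered samples of both organs probably come from the same fish, which is not stated outright. Deviations of same-numbered samples did not correlate above 0.1 in every pair, so the main fits did not use numbers to pair samples.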

Additional observations from a re-analysis of the deposited data

Results flagged for a closer look

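Among 132 groups of 5 or 6 libraries examined for a single value far from the rest, 23 held one, where chance alone gives about 5%. The groups belong to members named by rule or picked for such values, so their number is not a test. HC5 accounted for 6 of them. Its channels took 0.666% of counts beside 0.908 to 1.02% in the other controls, and it held 47.9 CPM of kcna2a (others 88.4 to 105.3), 48.5 CPM of cacna1bb (87.5 to 106.0), 133.0 CPM of cacna1ea (243.9 to 309.5), 89.96 CPM of cacna1aa (203.5 to 266.5) and 59.2 CPM of kcnk4a (4.93 to 10.7). Other hypothalami stood out once each. HT4 held 25.7 CPM of kcnk4a (5.80 to 8.44), HC4 held 218.7 CPM of cacnb1 (140.8 to 154.2) and HC6 held 2.21 CPM of clcnk (3.70 to 4.25).

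Among control ovaries, OC6 had 5.68 CPM of KCNS2 (1.27 to 1.92), 2.72 CPM of kcnk5b (0.724 to 1.22) and 3.27 CPM of kcnh5a (0 to 0.163). OC1 had 22.6 CPM of kcnn2 (0.489 to 1.85) and 0.0767 CPM of KCNJ10 (0 in the others). OC2 had 0.0905 CPM of kcnj12b (0 in the others) and 0.996 CPM of kcnk17 (0 to 0.244), and OC3 had 4.07 CPM of clcn4 (83.5 to 106.7). The KCNJ10 and kcnj12b values are single reads, and the clcn4 model overlaps dusp27 on the same strand.

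Among PNX-14 ovaries, OT2 had 10.96 CPM of kcnj3a (0 to 0.624) and 6.06 CPM of scn4aa (0.230 to 0.831). OT3 had 19.95 CPM of kcnn2 (0.234 to 1.43), OT6 had 2.50 CPM of kcng2 (1.75 to 1.87), and OT5 had 2.79 CPM of kcnj12b (0 to 0.0831) and 4.52 CPM of kcnj11l (ENSTNIG00000002690, 0.230 to 0.858).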

How the results depend on the processing

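No channel named by the rule changed direction under the 81 alternatives run, in the comparisons it was named for. The larger direction among all genes at an unadjusted p of 0.05 did change in some. In the hypothalamus 440 higher and 228 lower became 300 and 319 with at least 10 counts. With DESeq2, 599 and 581 became 648 and 665 in the ovary, and 571 and 531 became 562 and 653 in the interaction. Near-zero medians of all genes changed sign too, in the hypothalamus from 0.01 to -0.01 with DESeq2 or RLE factors and -0.02 with at least 10 counts, and in the interaction from 0.04 to -0.02 without the hypothalami over 500 CPM of zpax1. The channels past an adjusted p of 0.05 stayed at 0 in the ovary and in the hypothalamus under each of them. For the interaction the number was 0, and 1 with DESeq2, and 0 to 1 when single libraries were left out, KCNS2 being the gene. Over all genes the interaction had 1 past this threshold by edgeR and 23 with DESeq2. At an unadjusted p of 0.05, the 8 channels of the ovary became 5 with at least 10 counts required in every library (61 tested), 12 without a filter (7 of the 8 among them), 4 with the oocyte level as a term, and 4 to 7 with single libraries left out. Over all genes 1180 of 14777 became 1108 of 13311 with at least 10 counts and 1440 of 19346 without a filter. They became 805 with the oocyte term and 802 to 1470 with single libraries left out. The 10 of the hypothalamus became 5 with the replicate block and 4 to 13 with single libraries left out. All genes there went from 668 to 464 with the block and to between 350 and 1473 with single libraries left out. The 21 of the interaction became 7 with at least 10 counts, 13 without the hypothalami over 500 CPM of zpax1, and 19 to 27 with single libraries left out. For all genes 1102 of 17612 became 594 of 12669 with at least 10 counts. Without those hypothalami it was 929 of 17797, and 919 to 1528 with single libraries left out. Between organs the 111 higher channels became 47 and the 13 lower ones 6 with at least 10 counts, where 63 were tested, and 111 to 114 and 12 to 14 with single libraries left out. With at least 10 counts, 5311 of all 12973 genes were higher and 5085 lower. Among single genes, kcnk17 lost its call with the replicate block (adjusted p = 0.0622 by edgeR's quasi-likelihood test), and KCNB2 gained one in 2 of the fits that left out a library (log2 fold changes -0.49 and -0.51). The cause of these shifts was not tested beyond the fewer genes or samples each fit held. With the replicate block the log2 fold change of KCNS2 in the ovary was 2.31, against 3.32. Over all genes, it took the calls in the ovary from 2 to 10. Same-numbered deviations correlated from -0.317 to 0.325 between control and PNX-14 hypothalami and from 0.05 to 0.377 between ovaries. Between hypothalamus and ovary they ran from -0.252 to 0.275 in controls and from 0.062 to 0.235 in PNX-14 samples. The median of all genes between organs was 0.17 with TMM and 0.30 with DESeq2.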
